A study of Mus musculus with 6 samples.

Results

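Expression of 9 transcription factor genes that mark neurons of layers 2 to 4 of the cerebral cortex was examined in mouse cortical cells sorted as neurons. These were Cux1, Cux2, Pou3f1, Pou3f2, Pou3f3, Rorb, Mef2c, Lhx2 and Bhlhe22. The genes were taken by symbol from the authors' deposited table of 22544 rows. All 9 were found, each in 1 row, and all 9 had been tested by the authors (status OK in 12865 rows). RNA sequencing had been done on GFP-labelled upper-layer neurons isolated by FACS from the cortex of mice of the Swiss Webster stock. The animals were at postnatal day 3 (P3, 3 biological replicates) or 5 (P5, 3 biological replicates). No other treatment or genotype is named. The sources used here do not give how GFP was brought into the cells, the sex of the animals or any pooling of animals. The series is concerned with how neurons come to hold a post-mitotic state, and its design allows the comparison of P5 with P3. Levels are FPKM, fragments scaled to transcript length and library total, and the table gives 1 pooled value per age with no value per replicate.

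Upper-layer neurons connect cortical areas and hemispheres, and those of layer 4 receive thalamic input. Their identity is set by combinations of DNA-binding proteins. CUX1 and CUX2 carry CUT repeats and a homeodomain and shape dendrites and spines. The class III POU proteins (POU3F1, also called OCT6; POU3F2, BRN2; POU3F3, BRN1) bind DNA through a POU-specific domain and a homeodomain, and Pou3f2 and Pou3f3 act together in the production and migration of upper-layer neurons. RORB is an orphan nuclear receptor of layer 4, MEF2C a MADS-box factor of neuronal differentiation and synapse number, LHX2 a LIM-homeodomain factor of cortical progenitors and later upper layers, and BHLHE22 a basic helix-loop-helix repressor of area identity.

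The POU3F genes lack introns and resemble each other in the part of the gene that encodes the DNA-binding domains, so their coding sequences are shown first, to let the overlap between their rows be judged. The 120 bases below come from GENCODE M21 transcripts (GRCm38), read 5′ to 3′, with positions counted from the first base of the start codon. They cover 1039 to 1158 in Pou3f3, 898 to 1017 in Pou3f2 and 841 to 960 in Pou3f1. Capitals mark bases that differ from Pou3f3.
Pou3f3: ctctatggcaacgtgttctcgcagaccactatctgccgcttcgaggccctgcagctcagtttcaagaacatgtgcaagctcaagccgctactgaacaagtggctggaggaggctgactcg
Pou3f2: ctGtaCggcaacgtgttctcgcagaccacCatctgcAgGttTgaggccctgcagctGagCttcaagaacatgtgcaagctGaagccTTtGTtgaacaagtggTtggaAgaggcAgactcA
Pou3f1: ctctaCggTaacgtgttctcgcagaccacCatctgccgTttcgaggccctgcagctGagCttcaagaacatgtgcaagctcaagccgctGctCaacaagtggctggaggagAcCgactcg
In this window Pou3f2 differed from Pou3f3 at 17 bases and Pou3f1 at 10, and 13 and 9 of these bases were at the third position of a codon. The longest identical stretch in the whole coding sequences was 38 bases, between Pou3f1 and Pou3f2, against 29 between Pou3f1 and Pou3f3 and 23 between Pou3f2 and Pou3f3. No window of 50 bases was shared by any pair of the 3 genes. Cux1 and Cux2 shared at most 23 bases in a row. The sources used here do not give the read length, so the number of reads that could fit more than 1 of these genes is not known.

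The 9 genes spanned an 83.5-fold range of FPKM at P3 and a 113-fold range at P5. Mef2c was the most abundant in the authors' deposited table, with 156 FPKM (P3) and 226 FPKM (P5), followed by Rorb at 119 and 152. Both lay above at least 96.9% of tested rows at P3. A middle group held Pou3f3 (66.1 FPKM at P3 and 21.3 at P5), Bhlhe22 (53.4 and 29.3), Cux1 (34.9 and 25.3) and Lhx2 (29.8 and 23.0). Pou3f2 (11.9 and 7.28) and Pou3f1 (6.70 and 6.86) were lower. Cux2 was the least abundant at 1.87 and 1.99 FPKM, above 29.9% of tested rows at P3 and 24.8% at P5, and the only gene of the 9 below the median of tested rows (4.90 FPKM at P3 and 5.59 at P5). The order of the 9 levels was the same at both ages except that Pou3f3 stood 3rd at P3 and 6th at P5, behind Bhlhe22, Cux1 and Lhx2. Because the values are pooled, whether neighbours in this order differ beyond replicate error could not be tested.

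**Figure D1:**
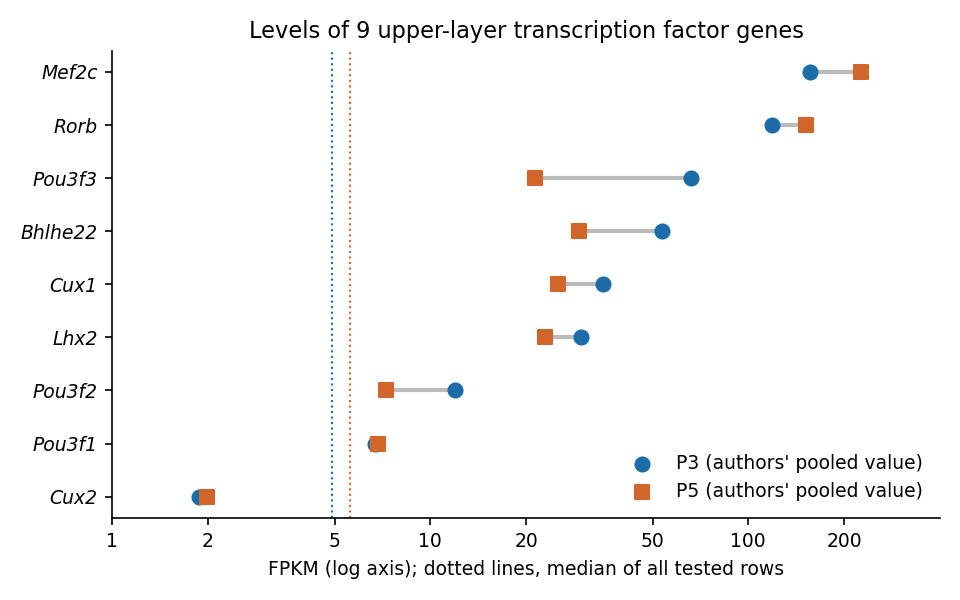
FPKM of each gene at P3 (circles) and P5 (squares) on a log axis, 1 pooled value per age from the authors' deposited table, with dotted lines at the median of tested rows. Mef2c and Rorb stand to the right at both ages, Cux2 lies below the median, and the longest line between ages belongs to Pou3f3 (66.1 to 21.3).

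Summed over the 9 genes, FPKM was 479.6 at P3 and 492.5 at P5, but the share of Mef2c and Rorb in that sum was 57.3% at P3 and 76.6% at P5. The other 7 genes together held 204.7 FPKM at P3, against 115.0 at P5, with the largest difference in Pou3f3 (66.1 and 21.3). These sums carry no error. Mef2c and Rorb had the widest errors of the 9 in the comparison of ages, given below, so a shift in share was not shown. In bulk RNA, fewer cells of a type and less RNA per cell cannot be told apart.

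No gene of the 9 passed the authors' Cuffdiff test of P5 against P3 at q = 0.05, and neither did any of the 12865 tested rows (0%), with a lowest q of 0.999988. At an unadjusted p under 0.05 there were 0 of the 9, against 99 tested rows (0.770%), of which 23 were lower at P5 (0.179%). FPKM was higher at P5 in 4 of the 9 (56.8% of tested rows) and lower in 5 (43.2%). The median log2 ratio of P5 over P3 was -0.37, against 0.13 over the 12313 tested rows above 0 at both ages. Over the 9665 tested rows with at least 1 FPKM at both ages, a level that all 9 genes reached, it was 0.02. Cux1 is the only gene of the 9 whose deposited locus also holds another row (Mir721, listed at 0 at both ages and not tested). Without Cux1 the median of the 9 was -0.17. The standard error (SE) of each ratio was taken from the deposited test statistic. It ranged from 0.84 for Pou3f3 to 2.39 for Rorb, so a ratio would have had to reach 1.64 for Pou3f3 and 4.69 for Rorb, in either direction, for its 95% interval to leave out 0. These limits hold for each gene alone, without adjustment. The adjusted test asked for more, since none of the 99 rows with an unadjusted p under 0.05 passed it. The intervals do not show that levels were alike at P3 and P5.

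**Figure D2:**
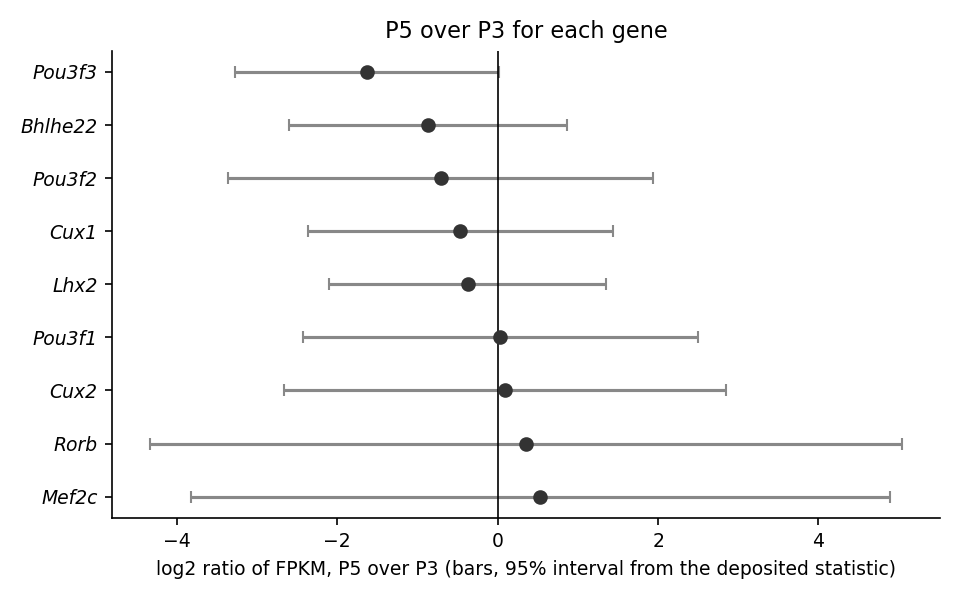
Log2 ratio of FPKM, P5 over P3, of each gene (points) with the 95% interval from the deposited statistic (bars). Each interval includes 0, and that of Pou3f3, from -3.27 to 0.01, does so by the least.

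Pou3f3 (mm9 chromosome 1, 42753991 to 42757054) had the lowest p of the 9. The authors' deposited table has it at 66.1 FPKM (P3) and 21.3 FPKM (P5), 3.10-fold lower at the later age (log2 ratio -1.63, SE 0.84, 95% interval -3.27 to 0.01, Cuffdiff p = 0.0517, q = 0.999988). A p this low or lower was found in 109 of the 12865 tested rows. Among the 5010 tested rows with at least 10 FPKM at either age, 1.42% had a ratio as low. Its SE of 0.84 was smaller than in all but 0.463% of rows, so the gene was measured about as precisely as this table allows. Pou3f2 (chromosome 4, 22413941 to 22415278) was at 11.9 and 7.28 FPKM (log2 ratio -0.71, SE 1.35), and Pou3f1 (chromosome 4, 124334889 to 124337899) at 6.70 and 6.86 (0.03, SE 1.26). The level of Pou3f3 was 9.86 times that of Pou3f1 at P3 and 3.11 times at P5. The ratio of Pou3f1 exceeded that of Pou3f3 by 1.66 log2 units (SE 1.51, 95% interval -1.30 to 4.63, errors of the genes taken as independent), and the ratio of Pou3f2 exceeded it by 0.92 (SE 1.59, interval -2.20 to 4.04), so a difference between the paralogues was not shown. Of all 36 pairs among the 9 genes, 0 had an interval that left out 0.

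The rows beside Pou3f3 were also lower at P5. They were chosen for description after their values were seen. The row 2610017I09Rik (mm9 chromosome 1, 42705045 to 42751670), which RefSeq names Pantr1, also Pou3f3os and linc-Brn1a, is a long noncoding RNA on the opposite strand whose locus ends 2320 bases before the Pou3f3 row begins. The authors' deposited table has it at 3892 FPKM (P3) and 1380 FPKM (P5) (log2 ratio -1.50, SE 1.13, p = 0.187), the 4th highest level of the table at P3 and the 14th at P5, and 58.9 and 64.7 times the level of Pou3f3. The row 2900092D14Rik (42757181 to 42760021), a noncoding RNA in RefSeq, begins 126 bases after the Pou3f3 row ends. Its level in the authors' deposited table was 373 FPKM (P3) and 212 FPKM (P5), again without passing the test (log2 ratio -0.82, SE 1.39, p = 0.556).

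**Figure D3:**
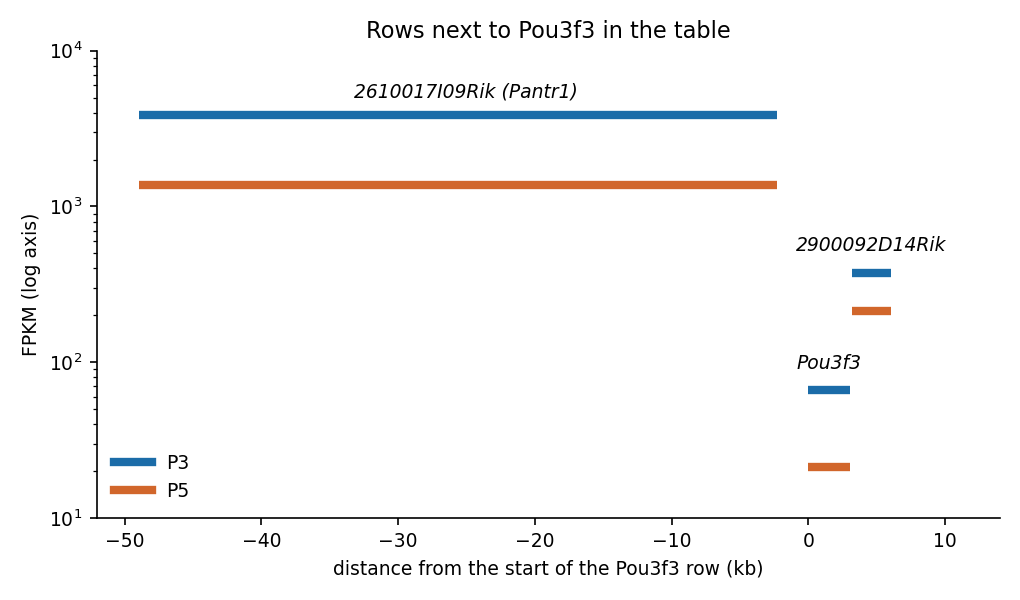
FPKM (log axis) of Pou3f3 and of the deposited rows within 50000 bases of it at P3 and P5, each drawn over the length of its locus, by distance from the start of the Pou3f3 row. All 3 rows had the lower value at P5, and both neighbours lay above Pou3f3 at both ages.

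The gene model behind these rows bears on their levels. In GENCODE M21, on the newer build GRCm38, Pou3f3 is 1 exon of 7409 bases, 4537 of them after the stop codon, and all 2841 bases of 2900092D14Rik lie in that last stretch. The deposited Pou3f3 row spans 3064 bases. The deposited rows of the pair do not overlap. The Pou3f2 row spans 1338 bases, which equals the coding length of its transcript in GENCODE M21 (445 codons and the stop), where the whole transcript has 5587 bases. The Pou3f1 row spans 3011 bases and the GENCODE transcript 3849. A comparison of FPKM between the 3 POU3F genes thus rests on deposited models that differ in how much of each GENCODE transcript they span.

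The promoter of Pou3f3 is shown because the gene and the rows on either side had lower values at P5. None of these rows passed the test, and a shared change was not tested. The promoter of Pou3f2 is shown for comparison. Each run is the 250 bases before the RefSeq start, 5′ to 3′ on the strand of the gene (GRCm38.p6, chr1:42695518-42695767 on the plus strand and chr4:22488367-22488616 on the minus strand). Capitals mark the motif CCAAT or its reverse complement ATTGG, which do not overlap each other here.
Pou3f3: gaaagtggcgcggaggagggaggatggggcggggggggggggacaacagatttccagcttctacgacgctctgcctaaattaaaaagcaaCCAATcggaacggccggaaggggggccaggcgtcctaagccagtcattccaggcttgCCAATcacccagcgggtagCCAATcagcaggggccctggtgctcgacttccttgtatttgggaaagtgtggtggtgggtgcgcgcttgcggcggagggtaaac
Pou3f2: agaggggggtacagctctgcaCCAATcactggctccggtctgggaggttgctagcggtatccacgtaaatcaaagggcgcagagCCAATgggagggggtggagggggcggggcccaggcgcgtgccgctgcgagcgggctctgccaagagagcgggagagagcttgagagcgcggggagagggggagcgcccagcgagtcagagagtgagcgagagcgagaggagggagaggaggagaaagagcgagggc
Pou3f3 held 3 copies and Pou3f2 held 2. At least 3 copies were found in 2.79% of 32851 RefSeq promoters of this length and at least 2 in 10.1%. Because Pou3f3 was picked by its values, these shares are not a test. A Mef2c start also held 2 copies, another Mef2c start and a Rorb start held 1, and the starts of Cux1, Cux2 and Lhx2 held 0. A match to these letters is a description and not a binding site. The deposited Pou3f3 row begins further from Pantr1 (2320 bases on mm9) than the RefSeq gene does on GRCm38 (942 bases), so the window shown need not adjoin the start of the deposited model. The RefSeq table held promoters for 7 of the 9 genes, 12 in all. Their GC content ranged from 33.6% at a Mef2c start to 80.0% at a Cux2 start, against a median of 52.4% over all promoters.

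Of the CUX genes, Cux1 (mm9 chromosome 5, 136724005 to 137043301) is listed in the authors' deposited table with 34.9 FPKM for P3 and 25.3 for P5 (log2 ratio -0.47, SE 0.97, p = 0.632). Cux2 (chromosome 5, 122310225 to 122497834) has 1.87 and 1.99 FPKM by the authors' deposited table (ratio 0.09 on the log2 scale, SE 1.41, p = 0.949). Cux1 thus had 18.7 times the FPKM of Cux2 at P3 and 12.7 times at P5. Their ratios differed by 0.56 log2 units (Cux1 lower, SE 1.71, 95% interval -3.91 to 2.80). The Cux1 gene also encodes CASP, a Golgi protein made by alternative splicing, and a value per gene sums over such transcripts. GENCODE M21 lists 9 protein-coding transcripts of Cux1 and 5 of Cux2. Satb1, a chromatin organiser whose domains are distantly related, was at 17.8 and 20.9 FPKM.

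Rorb and Mef2c were the most abundant of the 9 and also had the widest errors. Rorb (mm9 chromosome 19, 19005099 to 19185686) is listed in the authors' deposited table with 119 FPKM for P3 and 152 for P5 (log2 ratio 0.35, SE 2.39, 95% interval -4.34 to 5.04, p = 0.883). Mef2c (chromosome 13, 83643033 to 83806684) has 156 and 226 FPKM by the authors' deposited table (log2 ratio 0.53, SE 2.22, interval -3.83 to 4.89, p = 0.811). Among the 386 tested rows with at least 100 FPKM at both ages the median SE was 1.0, and 92.5% of them had a smaller SE than Rorb and 90.7% a smaller SE than Mef2c. GENCODE M21 lists 27 protein-coding transcripts for Mef2c and 3 for Rorb. The part of isoforms, or of spread between replicates, in these errors was not tested.

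**Figure D4:**
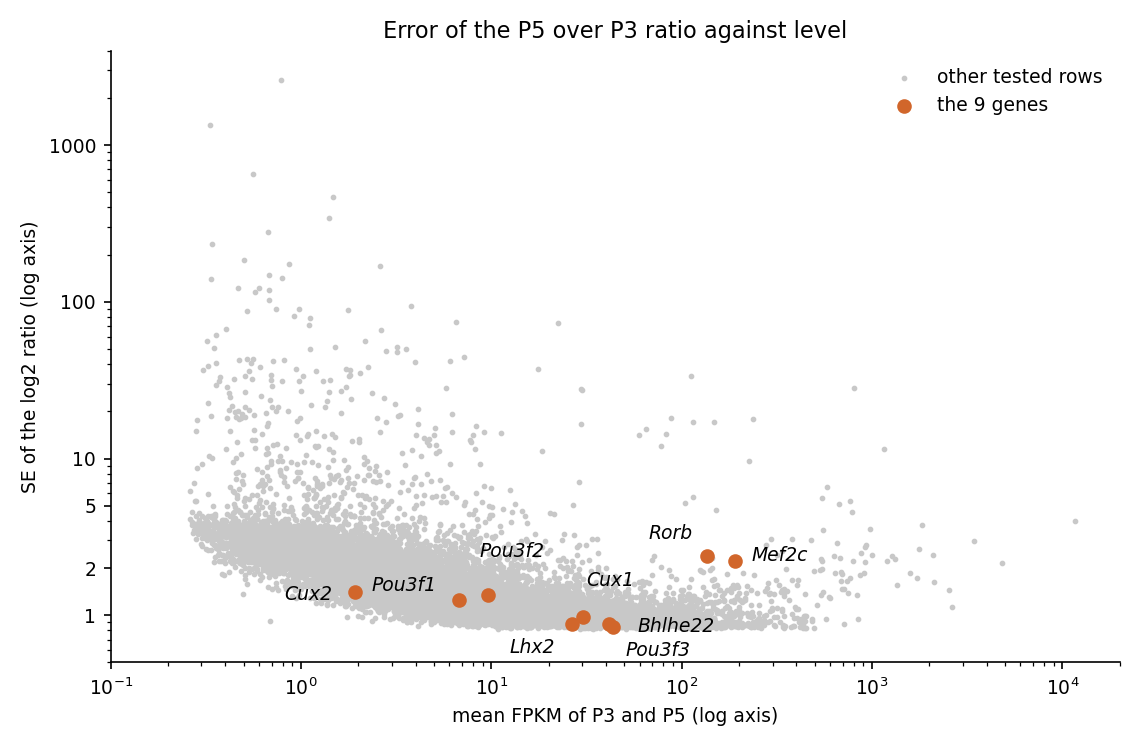
SE of the log2 ratio against the mean FPKM of both ages for tested rows above 0 at both ages (grey) and the 9 genes (orange), both axes log. Pou3f3, Bhlhe22, Lhx2 and Cux1 sit at the low edge with SE under 1, while Rorb (2.39) and Mef2c (2.22) sit above most rows of like level.

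The relatives of these 2 genes were far less abundant. Rora, the other ROR receptor tested, had 3.39 FPKM at P3 against 7.47 at P5, so that Rorb had 35.0 and 20.3 times its FPKM. The REV-ERB receptors, which bind the same response elements as repressors, differed in direction, Nr1d1 at 3.86 and 11.99 FPKM (log2 ratio 1.63, SE 1.31) and Nr1d2 at 2.81 and 1.38 (-1.03, SE 1.44). Mef2a was at 4.92 and 8.55 FPKM, 31.7-fold below Mef2c at P3 and 26.4-fold at P5. Mef2d was listed at 0 at P3 and at 0.700 at P5, and so has no fold. The class IIa deacetylases, which hold MEF2 proteins in a repressed state, all lay below Mef2c, with Hdac4 at 10.6 and 9.51 FPKM, Hdac5 at 4.598 and 3.99, Hdac9 at 2.70 and 3.24, and Hdac7 at 4.06 and 1.69 (-1.26, SE 1.96).

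Lhx2 and Bhlhe22 both had lower FPKM at P5 and narrow errors. Lhx2 (mm9 chromosome 2, 38206828 to 38225248) is listed in the authors' deposited table with 29.8 FPKM for P3 and 23.0 for P5 (log2 ratio -0.37, SE 0.88, p = 0.672). Bhlhe22 (chromosome 3, 17954325 to 17957514) had 53.4 and 29.3 FPKM by the authors' deposited table, 1.82-fold lower at P5 (log2 ratio -0.87, SE 0.88, 95% interval -2.60 to 0.86, p = 0.326). Prdm8, the zinc-finger protein that BHLHE22 recruits as a corepressor, was at 5.20 and 2.83 FPKM (-0.88, SE 1.38), so the FPKM of Bhlhe22 was 10.3 times that of Prdm8 at each age. Bhlhe40 was at 12.6 and 8.84 FPKM, while Bhlhe23 and Bhlhe41 were listed at 0 at both ages. Around Lhx2, the LIM-only genes whose products compete for the same LDB cofactors were abundant, with Lmo4 at 65.6 and 46.3 FPKM and Lmo1 at 37.1 and 13.1 (-1.50, SE 1.22). Lmo2 was at 1.01 and 5.59 FPKM (2.46, SE 2.55).

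Over 8 lists of related genes (other POU, CUT and SATB, LIM, MEF2, ROR and BHLHE genes, further upper-layer genes, and deep-layer factors), 51 of the 74 genes in the table had been tested. By the authors' Cuffdiff test 0 passed at q = 0.05, and 0 had an unadjusted p under 0.05. FPKM was higher at P5 in 29 and lower in 22. Of the other POU genes 6 of 12 were tested, 2 with higher and 4 with lower FPKM at P5, and 5 were listed at 0 at both ages. Pou3f4, the remaining class III gene, was the most abundant at 11.2 and 9.57 FPKM and Pou2f1 was at 6.91 and 3.79. Further genes of upper layers and layer 4 had a median ratio of 0.17 over 14 tested, 8 higher and 6 lower at P5. Their FPKM summed to 277 at P3 and 200 at P5. Rasgrf2, an exchange factor for RAS, was at 1.99 and 4.72 FPKM (1.25, SE 1.37). The more abundant Lmo4 was at 65.6 and 46.3, and Pvrl3 at 38.3 and 22.2. Deep-layer factors had a median of 0.42 over 11 tested, 8 higher and 3 lower. Their FPKM summed to 82.3 at P3 and 97.2 at P5, with Foxp1 the highest at 21.8 and 29.2, Zfpm2 at 0.835 and 3.22 (1.95, SE 1.66) and Tshz2 at 3.12 and 0.967 (-1.69, SE 1.39).

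The labelled cell type was checked against markers. Cortical excitatory neuron markers were present, with Neurod6 at 237 FPKM at P3 and 109 at P5 and Neurod2 at 25.2 and 11.9. Of the vesicular glutamate transporters, Slc17a7 was at only 0.181 and 2.68, and Slc17a6 was at 7.18 and 10.2. Emx1 was at 6.52 and 11.2. Of 6 tested, 3 were higher and 3 lower at P5, and their summed FPKM was 281 and 148, mostly Neurod6. All 4 tested pan-neuronal markers were higher at P5 (summed FPKM 449.5 and 1053), with Stmn2 at 332 and 758 and Snap25 at 36.5 and 129 (log2 ratio 1.82, SE 1.04).

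Markers of other cells were also present, in part far above the 9 genes. At P3, however, the median FPKM of tested markers was only 0.374 for microglia and 0.398 for endothelial and mural cells. At P5 these medians were 13.3 and 1.97. Lhx2, Pou3f2 and Pou3f3 are also expressed by cortical progenitors. Of 9 tested progenitor markers 7 were lower and 2 higher at P5, with 0 markers listed at 0 and summed FPKM of 5570 and 4399, mostly Fabp7 (5388 and 4272). Emx2 was at 14.8 and 5.82 FPKM and Hes5 at 9.12 and 13.8. Mef2c is also expressed by microglia and endothelial cells. All 11 tested microglia markers were higher at P5, with summed FPKM of 20.2 and 160 and Itgam listed at 0 at P3. Cd68 was at 0.194 and 15.8 FPKM and C1qb at 9.69 and 27.5. Endothelial and mural markers were higher at P5 in 7 of 9 tested and summed to 916 and 950 FPKM, nearly all Rgs5 (911 and 905), with Tek listed at 0 at P3, and Vtn at 1.40 and 25.1. The part of these cells in the values of the 9 genes was not tested.

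Glial and interneuron markers completed the check. Astrocyte markers were higher at P5 in 8 of 10 tested (summed FPKM 2628 and 3155), with Slc1a3 at 1088 and 758, Sox9 at 252 and 143 and Apoe at 64.9 and 498. Oligodendrocyte lineage markers were higher in 11 of 11 (140.5 and 309), with Mag and Mog listed at 0 at P3. Interneuron markers, which include further homeodomain genes, were higher in 7 and lower in 5 of 12 tested (705 and 835.5). Most of that sum was Sp8 (445 and 310) and Npy (155 and 356). The GABA synthesis and transport genes were lower, with Gad1 at 5.69 and 8.73, Gad2 at 9.29 and 7.97 and Slc32a1 at 0.310 and 0.486. Sst was at 30.1 and 95.6, Pvalb was listed at 0 at P3, and Dlx6 was at 0.921 at P3 and listed at 0 at P5. None of the markers passed the authors' Cuffdiff test at q = 0.05. An unadjusted p under 0.05 was found for 5 markers, each higher at P5. These were 1 of 10 tested astrocyte, 1 of 11 oligodendrocyte lineage, 2 of 11 microglia and 1 of 9 endothelial and mural markers. The other marker lists held none. Over all 12865 tested rows there were 99 (0.770%), of which 23 were lower at P5. The markers thus do not show that the values come from upper-layer neurons alone. The part of glia or interneurons in the level of Rorb, or of any other gene examined, was not tested.

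**Figure D5:**
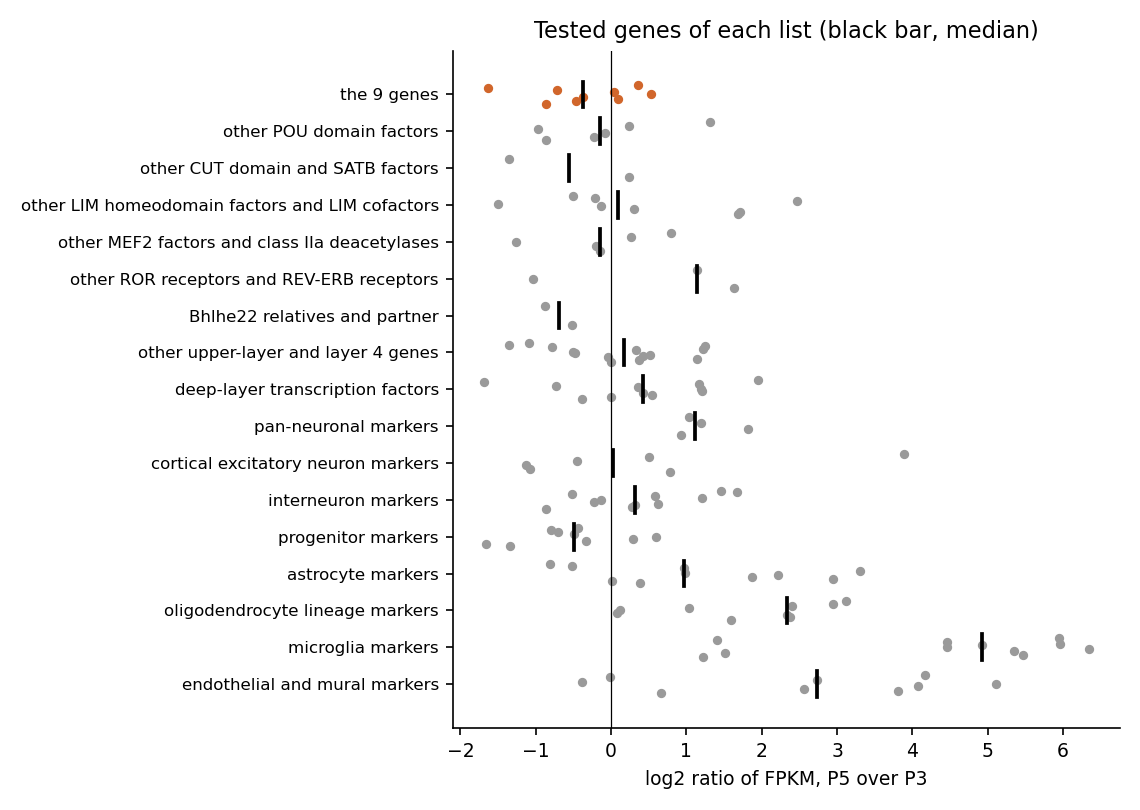
Log2 ratio of FPKM, P5 over P3, of the tested genes above 0 at both ages in each list (points) with the list median (black bar). The 9 genes lie between -1.63 and 0.53 around a median of -0.37, and microglia markers lie furthest to the right with a median of 4.92.

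The gene nearest to a member of the 9 in log2(FPKM + 1) at P3 and P5 was sought among 122 tested genes of the lists, over these 2 ages only. Lhx2 lay nearest to the upper-layer gene Limch1 (29.7 and 21.4 FPKM, distance 0.10), Pou3f2 to the progenitor gene Nes (10.9 and 7.74, distance 0.14) and Cux1 to the upper-layer gene Pvrl3 (38.3 and 22.2, distance 0.22). Bhlhe22 lay nearest to the progenitor gene Sox2 (43.6 and 25.1, distance 0.36). Cux2 was nearest to Pdgfrb (distance 0.24) and Pou3f1 to the interneuron gene Dlx2 (5.46 and 6.63, distance 0.26). The most abundant pair had no close match, Rorb being nearest to Tubb3 (75.6 and 155, distance 0.64) and Mef2c to Npy (155 and 356, distance 0.65).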

How the data were processed

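RNA sequencing of 6 samples (3 at P3, 3 at P5) was analysed from 1 table. TopHat, Cuffdiff 2.02 and mm9 are listed in the submitters' processing notes without role or order. Per the file headers, the table made by the authors holds FPKM pooled per age, the log2 ratio, a test statistic (these last 2 handled as a score, since the deposited columns carry a placeholder where 1 age is at 0), a p-value and a q-value. The depth is unknown, since FPKM alone were used.

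Because values are pooled, the test is the authors' Cuffdiff test. In 12313 rows its deposited p-value matched, to within 2.8e-06, a two-sided p computed from the statistic as a normal deviate. The statistic shared the sign of the ratio in 0 of these rows, so absolute values were taken: SE is the size of the ratio over that of the statistic, and 95% intervals extend 1.96 SE to each side. Across rows the statistic spread less (0.66, a robust estimate) than a normal deviate would (1). The SE were thus large for the spread of ratios across rows, and the true coverage of the 95% intervals was not tested. The calculation was run on simulated data, which checks its arithmetic and not whether these SE suit the deposited values. Loci are mm9 as deposited, with starts counted from 1. Sequences are from GENCODE M21 and RefSeq (GRCm38.p6).

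The 9 genes and all lists were chosen with earlier results of these data known. Named were the 9, the lowest p in each direction and highest mean FPKM of each list, and the nearest gene to each of the 9. Any further gene was picked with its values in view. Some genes that this rule names are not reported here. Lamp5 and Map2 were not analysed here. Alternatives were other thresholds, adjustments, filters, pseudocounts of 1 and 0.1 FPKM, and centring. Python 3.11.15, pandas 2.3.3, scipy 1.17.1 and matplotlib 3.10.9 were used.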

Additional observations from a re-analysis of the deposited data

How the results depend on the processing

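The 48 alternative values kept their direction and their side of the threshold, though some of the settings could not have changed them. The count of genes passing the test stayed at 0 of the 9 and 0 of the related genes with q at 0.01, Bonferroni adjustment, an unadjusted p under 0.05, adjustment over rows reaching 1 FPKM, and no filter. With a lowest q of 0.999988, q at 0.01 and Bonferroni adjustment could give no other count and so add no support. The lowest unadjusted p of the Cuffdiff test was 0.0517 for the 9 and 0.150 for the related genes. An adjusted p is never below the unadjusted one. Adjustment over rows reaching 1 FPKM and adjustment with no filter thus could give no other count either. The median log2 ratio of the 9 ranged from -0.42 without Cux2, the gene under 5 FPKM, to -0.17 without Cux1, which shares its locus, and the mean was -0.34. FPKM was higher at P5 in 4 of the 9 under both pseudocounts and centring, and in 3 genes without Cux2. A pseudocount added at both ages cannot change the direction of a ratio, so that outcome was fixed in advance. No paired analysis was possible because the table holds 1 pooled value per age, and for the same reason no replicate could be left out. The labels call the samples biological replicates, but the spread between them can be read only through the deposited statistic. The depth is unknown, so its part in the errors was not tested.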
